A study of Mus musculus with 12 samples.

Results

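Of the 11834 genes in a table that sets Btn1a1-/- (KO) against wild type (WT) lactating mammary gland, 8 were taken up by name: Clca3a1, Clca3a2, Cdhr1, Basp1, Spp1, Slc5a8, E330013P04Rik and D830030K20Rik. They were selected on their measured KO minus WT difference, as large rises that are not acute-phase genes. Their own differences are therefore given as values, with no test. Tissue came from C57BL/6 mice in lactation 1, with 1 library of polyA RNA per mouse: 7 KO mice, of which 5 were at day 10 of lactation, KO replicate 3 at day 8 and KO replicate 4 at day 11, against 5 WT mice, of which 3 were at day 10, WT replicate 2 at day 9 and WT replicate 3 at day 11. Btn1a1 encodes butyrophilin, a membrane protein of milk-secreting cells that takes part in wrapping milk fat droplets in membrane. Mutant mice were kept by single pairs of heterozygotes and WT mice were bred in harems. The breeding text speaks of more than 1 mutant strain, and which applies to each KO mouse is not stated. A pair of diets is named without saying which mouse had which. Genotype, breeding and diet therefore cannot be told apart.

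The milk-secreting alveolar epithelium makes up most of the gland in lactation, moves ions, sugars and fat across its surface, and is swept away by cell death and macrophages once suckling ends. Clca genes encode secreted proteins that regulate calcium-activated chloride channels, Slc5a8 takes up lactate and short-chain fatty acids with sodium, and Cdhr1 is a cadherin-related membrane protein best known from photoreceptors. Basp1 encodes a lipid-anchored protein of the inner cell membrane that binds calmodulin, and Spp1 encodes osteopontin, a secreted phosphoprotein that binds integrins and Cd44 and is found in milk and in macrophages. E330013P04Rik is annotated as a long intergenic RNA and D830030K20Rik as protein-coding, and no function is given for either here.

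Btn1a1 itself averaged 5.63 ± 0.30 log2 CPM in KO libraries and 11.07 ± 0.09 in WT libraries (SD, n = 7 and 5), or 2.35% of the WT level by mean CPM. CPM is a read count scaled to a common library total, here with its distribution made equal between libraries by the authors. Depth was judged from the median step between neighbouring values that at least 8 genes share. By this, 1 CPM stood for roughly 23.2 to 34.7 reads in KO libraries and 17.1 to 30.4 reads in WT libraries. The steps were taken after the distributions were made equal, so these are rough estimates. Over all genes, the median KO minus WT difference was -0.03 log2, and 573 genes (4.84% of 11834) were higher and 535 (4.52%) lower in KO at an adjusted p under 0.05 by limma. All 8 listed genes were among the 573, which their selection implies. Of all genes, 2.69% had every KO library above every WT library, and 6 of the 8 listed genes did. This count too follows from the contrast that chose them. Ranked by the difference, the 8 stood at places 3 (Clca3a2), 4 (Cdhr1), 12 (Basp1), 13 (Spp1), 16 (E330013P04Rik), 18 (Slc5a8), 35 (Clca3a1) and 38 (D830030K20Rik). Unlisted genes stood between them that are not acute-phase genes either, such as 2610528A11Rik at place 5, S100a14 at place 15 and Dmkn at place 17, so the 8 are not a complete list of such rises. At the lower end Dsn1 stood just above D830030K20Rik with a difference of 2.30 and AI506816 just below with 2.28.

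**Figure D1:**
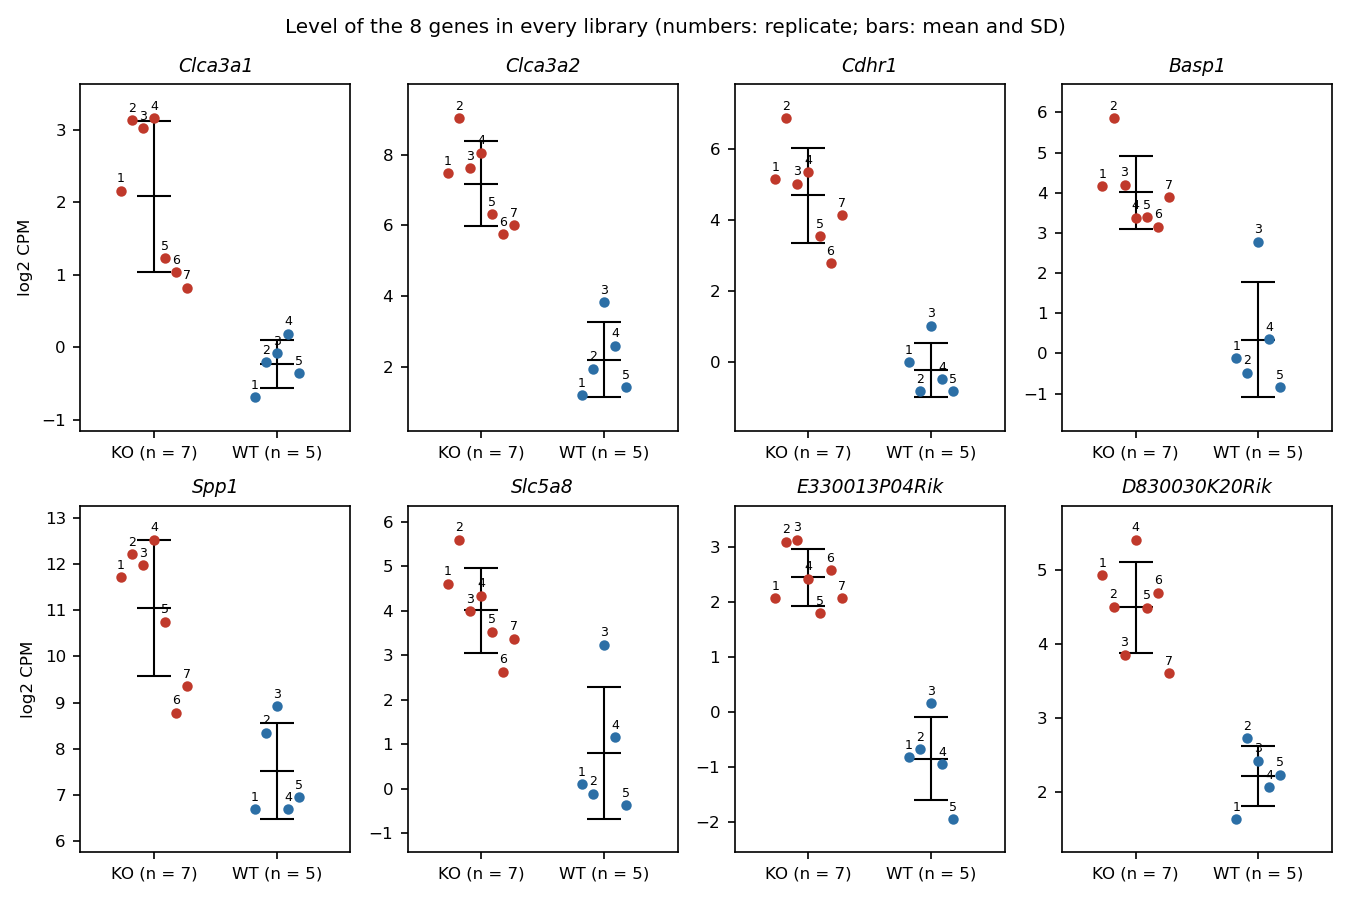
Level of each of the 8 genes in log2 CPM (y axis, own scale per panel) in every library, KO left and WT right, with the replicate number at each point and bars for mean and SD. KO and WT points overlap for Spp1 and Slc5a8 only, where KO replicate 6 lies below WT replicate 3.

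The chloride channel regulators Clca3a1 and Clca3a2 lie side by side on chromosome 3, 35.6 kb apart and both on the minus strand (mm10; Clca3a1, ENSMUSG00000056025.12, 144729677 to 144760977; Clca3a2, ENSMUSG00000028262.13, 144796559 to 144819494). Clca3a2 had 7.48, 9.04, 7.63, 8.06, 6.32, 5.76 and 6.01 log2 CPM in KO replicates 1 to 7, against 1.19, 1.95, 3.83, 2.60 and 1.42 in WT replicates 1 to 5. The lowest KO library was 1.93 log2 above the highest WT library, which was WT replicate 3. Averages were 7.19 ± 1.20 in KO and 2.20 ± 1.06 in WT, a difference of 4.99 (SE 0.65) or 31.7-fold. In KO libraries the gene lay above 93.5% to 99.5% of the genes in the table, against 19.9% to 68.9% in WT libraries.

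Clca3a1 was low in both genotypes by comparison. It had 2.16, 3.13, 3.02, 3.16, 1.23, 1.04 and 0.82 log2 CPM in KO replicates 1 to 7, against -0.69, -0.20, -0.08, 0.19 and -0.36 in WT replicates 1 to 5. The groups did not overlap, and KO replicates 5 to 7, at 0.82 to 1.23, were the lowest of the KO libraries. The difference was 2.31 (SE 0.44), or 4.95-fold. Of the 50-base stretches of Clca3a1 transcripts, 22.2% also occur in Clca3a2, and the longest transcripts match at 96.4% of aligned bases. RSEM, which the submitters' processing notes name, divides such reads between genes by estimate, so the split within the pair is uncertain and was not tested. Gm34866 lies antisense over Clca3a1 and Gm43240 antisense over Clca3a2. Neither is a row of the table, and the strand setting of the counting is not stated, so their reads cannot be told apart from those of the Clca genes.

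The promoter window of Clca3a1 (RefSeq, GRCm38.p6, 250 bases before to 50 bases after the gene start), chr3:144760928-144761227 on the minus strand, is shown where this gene is described. Not every window of the 8 genes is reported here. Promoter windows were searched on both strands for TGANTCA (AP-1), TTNCNNAA (a short form of the C/EBP motif), TTCNNNGAA (Stat) and GGGNNTTCC (a short form of the NF-kB motif), and any match is printed in capitals. The Clca3a1 window has no match.
Clca3a1: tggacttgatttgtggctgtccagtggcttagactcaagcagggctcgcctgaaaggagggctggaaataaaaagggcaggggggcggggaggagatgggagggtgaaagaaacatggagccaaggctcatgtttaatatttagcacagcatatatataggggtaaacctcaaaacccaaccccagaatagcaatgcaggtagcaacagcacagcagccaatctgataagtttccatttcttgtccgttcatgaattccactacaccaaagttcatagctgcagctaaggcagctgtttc
Of all 32851 RefSeq promoter windows, 7.81% hold the AP-1 letters, 40.7% the short C/EBP letters, 8.3% the Stat letters and 5.82% the short NF-kB letters. The windows of Cdhr1 and E330013P04Rik and the second windows of Spp1 and D830030K20Rik hold the short C/EBP letters.

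The next measured gene of the cluster, Clca2, 251 kb beyond Clca3a2, was the other Clca gene in the table and was not among the 8. It averaged 2.38 ± 0.75 log2 CPM in KO and 0.84 ± 0.45 in WT (SD, n = 7 and 5), and it rose by 1.54 (SE 0.34, limma adjusted p = 0.0161), with 6 of 7 KO libraries above every WT library. Its adjusted p was at most 0.044 with any 1 library left out, but 0.18 in the libraries of day 10 alone. On the other flank, Sh3glb1, 9.34 kb from Clca3a1, differed by 0.10 (SE 0.07, limma adjusted p = 0.413).

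Cdhr1 (ENSMUSG00000021803.10, chromosome 14, 37077857 to 37098347, minus strand, mm10) had 5.16, 6.88, 5.03, 5.36, 3.55, 2.78 and 4.13 log2 CPM in KO replicates 1 to 7, against -0.02, -0.83, 1.02, -0.50 and -0.83 in WT replicates 1 to 5. KO replicate 2 was the highest and KO replicate 6 the lowest of the KO libraries, and KO replicate 6 was still 1.77 log2 above WT replicate 3, the highest WT library. The difference was 4.93 (SE 0.65), or 30.5-fold. WT values of 0.564 to 2.02 CPM stand for low read counts, at roughly 17.1 to 30.4 reads per CPM. In WT libraries only 1.35% to 17.3% of the genes in the table lay lower. No 50-base stretch of Cdhr1 transcripts occurs in another gene. None of 9 photoreceptor markers is a row of the table.

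The promoter window of Cdhr1, chr14:37098298-37098597 on the minus strand, is shown because a second gene lies just beyond it. The window holds TTGCTCAA, a match to the short C/EBP letters marked in capitals, at -177 to -170.
Cdhr1: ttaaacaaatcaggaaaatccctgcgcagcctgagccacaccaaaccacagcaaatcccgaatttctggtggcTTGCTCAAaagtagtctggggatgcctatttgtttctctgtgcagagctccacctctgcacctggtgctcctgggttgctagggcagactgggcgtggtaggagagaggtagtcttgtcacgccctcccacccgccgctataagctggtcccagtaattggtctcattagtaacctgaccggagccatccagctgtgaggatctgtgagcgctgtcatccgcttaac
That second gene, 2610528A11Rik (Gpr15l in RefSeq), lies 3.79 kb from Cdhr1. It had 1.77, 3.32, 1.75, 2.52, 0.16, -0.54 and 0.45 log2 CPM in KO replicates 1 to 7, against -2.44, -4.01, -5.49, -1.94 and -3.96 in WT replicates 1 to 5. In WT libraries it lay at the bottom of the table, with at most 0.262% of genes lower and up to 15 genes at exactly its value, so the size of its difference is set by the lowest values of the scale. By limma it rose by 4.91 (SE 0.72, adjusted p = 0.00265), with 7 of 7 KO libraries above every WT library, and its adjusted p was 0.0546 in the libraries of day 10 alone. Across the 7 KO libraries its values followed those of both Cdhr1 and Clca3a2 with r = 0.98, given as a description with no test. Ccser2, 109 kb away on the other side of Cdhr1, differed by 0.27 (SE 0.14, limma adjusted p = 0.229).

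The cadherin and cadherin-related list gave 0 of 17 genes other than Cdhr1 higher and 0 lower by limma, and 0 by the authors' deposited table. At an unadjusted p under 0.05, 4 were higher. Its median difference was -0.09, against -0.03 over all genes, and the smallest adjusted p was that of Celsr2, an atypical cadherin of epithelial polarity (0.66, SE 0.24, adjusted p = 0.101).

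Spp1 (ENSMUSG00000029304.14, chromosome 5, 104435118 to 104441050, plus strand, mm10) was by far the most abundant of the 8. It had 11.71, 12.21, 11.97, 12.53, 10.75, 8.78 and 9.36 log2 CPM in KO replicates 1 to 7, against 6.70, 8.35, 8.93, 6.70 and 6.95 in WT replicates 1 to 5. KO replicate 6 lay below WT replicate 3, so the groups overlapped, while the other 6 KO libraries lay above every WT library. In CPM the KO libraries spanned 441 to 5930, against 104 to 487 in WT, and the difference was 3.52 log2 (SE 0.74) or 11.4-fold. Spp1 was above 97.1% of all genes in each WT library, so it was an abundant transcript in both genotypes. RefSeq gives it a pair of promoter windows. The first, chr5:104434861-104435160 on the plus strand, shown as that of the most abundant gene, holds none of the motif letters searched for, whereas the second, chr5:104435942-104436241, holds the short C/EBP letters at 2 places, from -156 to -149 and from -15 to -8.
Spp1: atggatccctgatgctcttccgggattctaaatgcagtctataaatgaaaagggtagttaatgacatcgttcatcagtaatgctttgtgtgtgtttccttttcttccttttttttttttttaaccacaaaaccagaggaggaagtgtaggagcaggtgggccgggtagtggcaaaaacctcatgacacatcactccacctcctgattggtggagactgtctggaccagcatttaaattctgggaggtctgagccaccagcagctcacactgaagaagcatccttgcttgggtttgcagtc
A predicted gene, Gm42793, overlaps Spp1 and contains 11.6% of its 50-base stretches. It averaged -1.06 ± 2.33 log2 CPM in KO and -3.99 ± 1.34 in WT (SD, n = 7 and 5), with a difference of 2.92 (SE 1.05, limma adjusted p = 0.0924, or 0.0255 without KO replicate 7).

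Of 11 genes for osteopontin receptors, 1 was higher in KO and 0 were lower, with a median difference of 0.12. The 1 was Itga5, a subunit of an integrin for fibronectin and osteopontin, which averaged 3.10 ± 0.40 log2 CPM in KO and 2.41 ± 0.23 in WT (SD, n = 7 and 5) and rose by 0.69 (SE 0.18, limma adjusted p = 0.0271). The call ended when KO replicate 1 (adjusted p = 0.052) or WT replicate 1 (0.0792), 4 (0.053) or 5 (0.0622) was left out. Of 4 measured proteases that cleave osteopontin, 1 was higher and 0 were lower (median 0.36): Mmp12, the metalloelastase of macrophages, rose by 0.68 (SE 0.16, limma adjusted p = 0.0204, or 0.0522 without WT replicate 1). Its levels were 1.75 ± 0.24 log2 CPM in KO and 1.06 ± 0.34 in WT (SD, n = 7 and 5).

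Macrophage markers were higher in KO as a mean over the list. The mean log2 CPM of the 13 of 15 markers in the table ranged from 2.25 to 2.75 in KO libraries and from 2.11 to 2.40 in WT libraries, a difference of 0.29 (exact two-sided permutation p = 0.0126, n = 7 and 5). Differences of the 13 ran in both directions, from -0.62 to 0.70 (median 0.34). By limma 0 were lower in KO, 9 did not pass, and 4 were higher: Cd68, C1qa, C1qb and Cx3cr1. Their part in the Spp1 values was not tested, and in bulk tissue more cells of a type and more RNA per cell cannot be told apart. None of 8 neutrophil and none of 9 T and NK cell markers is a row of the table. The marker mean was also higher in KO for luminal progenitors, 4.34 to 4.86 against 3.87 to 4.45 in WT (difference 0.46, exact permutation p = 0.00758, n = 7 and 5, 1 of 7 markers called). Differences of these 7 markers ran from -0.28 to 1.45 (median 0.35), and the mean without the highest was not tested. For basal cells the mean was also higher, 5.04 to 5.65 in KO against 4.83 to 5.27 in WT (difference 0.34, exact permutation p = 0.0177, n = 7 and 5, 6 of 10 called). Differences of these 10 markers ran from -0.18 to 0.62. Of the 10 secretory alveolar markers, 2 were lower in KO by limma, Btn1a1 and Plin2, a protein of the lipid droplet surface. Their mean ranged from 13.42 to 13.65 in KO and from 14.06 to 14.17 in WT (difference -0.57, exact permutation p = 0.00253, n = 7 and 5), with 7 of 7 KO libraries below every WT library. Secretory alveolar markers without Btn1a1 ranged from 14.34 to 14.49 in KO and from 14.40 to 14.52 in WT (difference -0.03, exact permutation p = 0.316, n = 7 and 5). Leaving Btn1a1 out was decided after the values were seen. Markers of lymphatic endothelium ranged from -0.77 to 0.55 in KO and from 0.66 to 0.88 in WT (difference -0.66, exact permutation p = 0.00253, n = 7 and 5), but the difference was -0.19 without Reln (exact permutation p = 0.121, likewise decided afterwards). Skeletal muscle markers had a median of 4.90 in KO and 4.30 in WT (difference of means 1.12, exact permutation p = 0.119, n = 7 and 5). Means of fibroblast, endothelial, adipocyte, B and plasma cell, nerve and hormone sensing luminal markers differed by -0.20 to 0.33 (exact permutation p from 0.149 to 0.76). The permutation p-values of marker means were not adjusted for the number of lists.

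Slc5a8 (ENSMUSG00000020062.7, chromosome 10, 88885992 to 88929515, plus strand, mm10) had 4.61, 5.60, 3.99, 4.34, 3.53, 2.63 and 3.37 log2 CPM in KO replicates 1 to 7, against 0.10, -0.11, 3.24, 1.16 and -0.37 in WT replicates 1 to 5. WT replicate 3 lay among the lower KO libraries and above KO replicate 6, whereas the other 4 WT libraries lay below every KO library. The difference was 3.21 (SE 0.68), or 9.24-fold, and 3.82 without WT replicate 3. In the other 4 WT libraries, values of 0.771 to 2.24 CPM stand for low read counts. Its promoter window, chr10:88885742-88886041 on the plus strand, is shown because its KO values followed those of Cdhr1 more closely than any other listed gene did. It has none of the motif letters searched for, and its bases are 60.7% G or C, against 48.0% in the Clca3a1 window.
Slc5a8: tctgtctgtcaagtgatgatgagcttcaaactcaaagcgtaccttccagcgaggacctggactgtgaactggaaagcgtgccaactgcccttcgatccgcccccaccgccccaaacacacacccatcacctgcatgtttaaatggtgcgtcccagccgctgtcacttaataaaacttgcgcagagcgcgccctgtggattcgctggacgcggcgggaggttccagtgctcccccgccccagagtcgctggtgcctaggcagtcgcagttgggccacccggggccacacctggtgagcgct
Of the measured neighbours of Slc5a8, Utp20 at 59.2 kb differed by -0.01 (SE 0.13, limma adjusted p = 0.974). Ano4, a calcium-dependent membrane protein gene 19.5 kb away, fell by 0.57 (SE 0.15, limma adjusted p = 0.0264), the opposite way from Slc5a8. The call for Ano4 ended without KO replicate 1 (adjusted p = 0.0534), WT replicate 1 (0.0544), WT replicate 4 (0.0534) or WT replicate 5 (0.0695).

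In the SLC5 and SLC16 lists around Slc5a8, only Slc5a1 and Slc16a9 were called lower in KO. The only gene called higher, Bsg, is a partner of transporters. Of all genes, 4.52% were called lower and 4.84% higher. Of 5 other measured SLC5 sodium cotransporters, 0 were higher and 1 was lower (median 0.16): Slc5a1, the sodium-glucose transporter, averaged 4.80 ± 0.33 log2 CPM in KO and 5.50 ± 0.17 in WT (SD, n = 7 and 5) and fell by 0.70 (SE 0.14, limma adjusted p = 0.0109), below every WT library in 7 of 7 KO libraries. Of 8 SLC16 monocarboxylate transporters and partners, 1 was higher and 1 was lower (median -0.03). Bsg, the partner that brings SLC16 transporters to the membrane, rose by 0.21 (SE 0.06, limma adjusted p = 0.0463), a call that ended without any 1 of the 12 libraries (adjusted p from 0.0524 to 0.105). Slc16a9 fell by 0.50 (SE 0.13, limma adjusted p = 0.0313), a call that ended without KO replicates 1, 2 or 7 or WT replicates 1, 2, 3 or 5 (adjusted p from 0.0565 to 0.077).

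The chloride and bicarbonate list outside the Clca family gave 3 of 17 higher and 0 lower, with a median of -0.10. Other Ano genes are on this list but Ano4, lower in KO as given above, is not. Clic1, a chloride intracellular channel protein, rose by 0.56 (SE 0.10, limma adjusted p = 0.00513), in 7 of 7 KO libraries above every WT library. Slc26a9, an epithelial chloride channel, rose by 1.16 (SE 0.30, limma adjusted p = 0.0261), but not without KO replicates 1 or 2 or WT replicates 3 or 4 (adjusted p from 0.0534 to 0.0644). Slc12a2, the sodium, potassium and chloride cotransporter of secretory epithelia, rose by 0.46 (SE 0.14, limma adjusted p = 0.0495), a call that held only without KO replicate 6 or WT replicate 4 (adjusted p from 0.0504 to 0.119 without any other library). Of the 11 called genes in these family and pathway lists, 3 were called in the day 10 libraries alone, namely Calm3, Itga5 and Slc5a1.

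Basp1 (ENSMUSG00000045763.8, chromosome 15, 25363277 to 25413764, minus strand, mm10) ranged from 3.16 in KO replicate 6 through a median of 3.89 to 5.86 log2 CPM in KO replicate 2, against -0.12, -0.48, 2.78, 0.35 and -0.83 in WT replicates 1 to 5. The lowest KO library was 0.37 above WT replicate 3, and the other 4 WT libraries lay more than 2 log2 lower than WT replicate 3. The difference was 3.67 (SE 0.64), or 12.7-fold, 4.28 without WT replicate 3 and 3.36 without KO replicate 2. In the other 4 WT libraries, values of 0.564 to 1.27 CPM stand for low read counts. Neither measured neighbour passed the test, and neither is close. Myo10, 209 kb away, differed by 0.18 (SE 0.07, limma adjusted p = 0.123). Drosha, 12400 kb away, differed by 0.10 (SE 0.10, limma adjusted p = 0.566). Of 10 nerve and Schwann cell markers, 2 are rows of the table, and their mean ranged from 1.70 to 2.76 log2 CPM in KO and from 1.67 to 2.71 in WT.

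Among 8 other genes for MARCKS and GAP43 related membrane proteins and their calmodulin partners, 2 were higher in KO and 0 lower (median 0.20). Calm3 rose by 0.32 (SE 0.08, limma adjusted p = 0.0194, or 0.0545 without WT replicate 1). Calm2 rose by 0.41 (SE 0.12, limma adjusted p = 0.0446), a call that held only without KO replicate 5, KO replicate 6 or WT replicate 4 (adjusted p from 0.0504 to 0.107 without any other library). Both encode calmodulin, and none of the other 6 genes of the list was called.

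The RNA gene E330013P04Rik (ENSMUSG00000053117.11, chromosome 19, 60144675 to 60162591, plus strand, mm10) ranged from 1.79 through a median of 2.42 to 3.13 log2 CPM in KO libraries, against -0.82, -0.68, 0.16, -0.95 and -1.94 in WT replicates 1 to 5. It had the smallest KO spread of the 8 genes (SD 0.52), and its groups were 1.63 log2 apart. The difference was 3.29 (SE 0.32), or 9.81-fold, between levels of 3.47 to 8.75 CPM in KO and 0.26 to 1.12 CPM in WT. Rab11fip2, a gene of vesicle recycling 201 kb away, averaged 4.26 ± 0.22 log2 CPM in KO and 3.44 ± 0.20 in WT (SD, n = 7 and 5) and rose by 0.82 (SE 0.11, limma adjusted p = 0.00188). Every KO library lay above every WT library for Rab11fip2. Fam204a, nearer at 36.0 kb on the other side, differed by 0.11 (SE 0.14, limma adjusted p = 0.631).

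D830030K20Rik (ENSMUSG00000096039.8, chromosome 14, 3208488 to 3234351, plus strand, mm10) ranged from 3.60 through a median of 4.50 to 5.41 log2 CPM in KO libraries, against 1.63, 2.72, 2.42, 2.06 and 2.23 in WT replicates 1 to 5. The lowest KO library, KO replicate 7, was 0.88 above the highest WT library, and the difference was 2.28 (SE 0.29) or 4.87-fold. Its identity is the least certain of the 8. Of its 50-base stretches, 65.6% occur in at least 1 of 116 other genes, of which 12 are rows of the table, and Gm17188 and Gm17222 lie antisense to it. Chosen after their values were seen, 7 of those 12 are predicted genes with a Gm symbol. These 7 share sequence with D830030K20Rik (Gm2244 holds 41.0% of its stretches), and reads may be divided between them by estimate. Their direction is therefore not separate evidence. All 7 had positive differences, from 0.75 to 2.66 with SE up to 1.03 (Gm3558), of which 1 passed the test. That gene, Gm2897, 132 kb away, averaged 3.51 ± 0.58 log2 CPM in KO and 1.97 ± 0.50 in WT (SD, n = 7 and 5) and rose by 1.53 (SE 0.29, limma adjusted p = 0.00895). Gm5796, the neighbour on the other side, 790 kb away, differed by 2.66 (SE 0.91, limma adjusted p = 0.081, or 0.0249 without KO replicate 3).

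**Figure D2:**
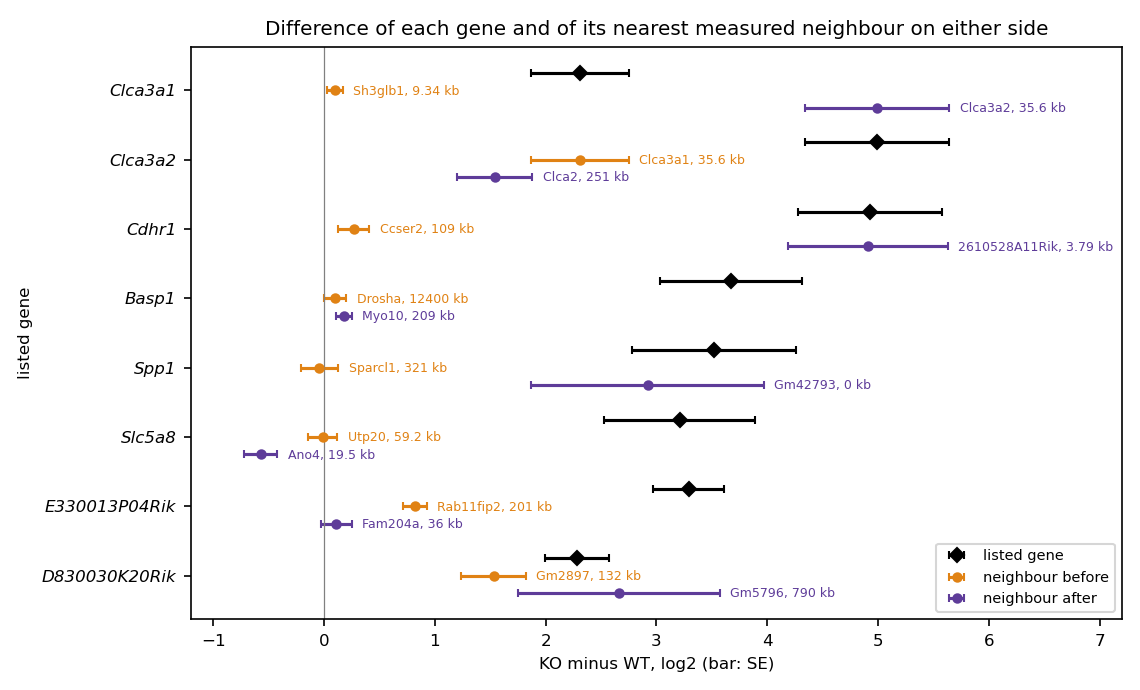
KO minus WT difference in log2 (x axis) with its SE for each of the 8 genes (diamonds) and for the nearest gene of the table before and after it on the chromosome (circles), labelled with the distance in kb. Cdhr1 and 2610528A11Rik, 3.79 kb apart, differ by 4.93 and 4.91. Both neighbours of Basp1, 209 and 12400 kb away, differ by less than 0.20.

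Levels can be set between genes only per length of transcript. In CPM per kb of exon, KO means were 1810 for Spp1, 49.1 for Clca3a2, 10.8 for D830030K20Rik, 9.89 for Basp1, 8.68 for Cdhr1, 3.68 for Slc5a8, 1.33 for Clca3a1 and 1.13 for E330013P04Rik. In WT the means were 139 for Spp1, 2.11 for D830030K20Rik, 1.46 for Clca3a2, 1.03 for Basp1, 0.543 for Slc5a8, 0.224 for Cdhr1, 0.223 for Clca3a1 and 0.121 for E330013P04Rik. Spp1 alone was apart from its neighbour in this order in both genotypes, with a lowest value of 267 CPM per kb in KO and 63.2 in WT. The ranges of all other neighbours overlapped, such as 13.6 to 132 for Clca3a2 and 5.37 to 18.8 for D830030K20Rik in KO.

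The same libraries were high or low for several of the genes. KO replicate 2 was the highest KO library for 4 of the 8 (Clca3a2, Cdhr1, Basp1 and Slc5a8), against 13.5% of all genes, and KO replicate 6 the lowest for 5 of the 8 (the same 4 and Spp1), against 13.2% of all genes. WT replicate 3, of day 11, was the highest WT library for 6 of the 8, against 18.4% of all genes, the exceptions being Clca3a1 and D830030K20Rik. Without WT replicate 3 the differences of Clca3a2, Basp1, Slc5a8 and E330013P04Rik were the largest of all that left out 1 library, at 5.40, 4.28, 3.82 and 3.55. Leaving out any 1 library moved no difference of the 8 beyond 0.848 to 1.22 times its value, nor did any other setting tried.

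**Figure D3:**
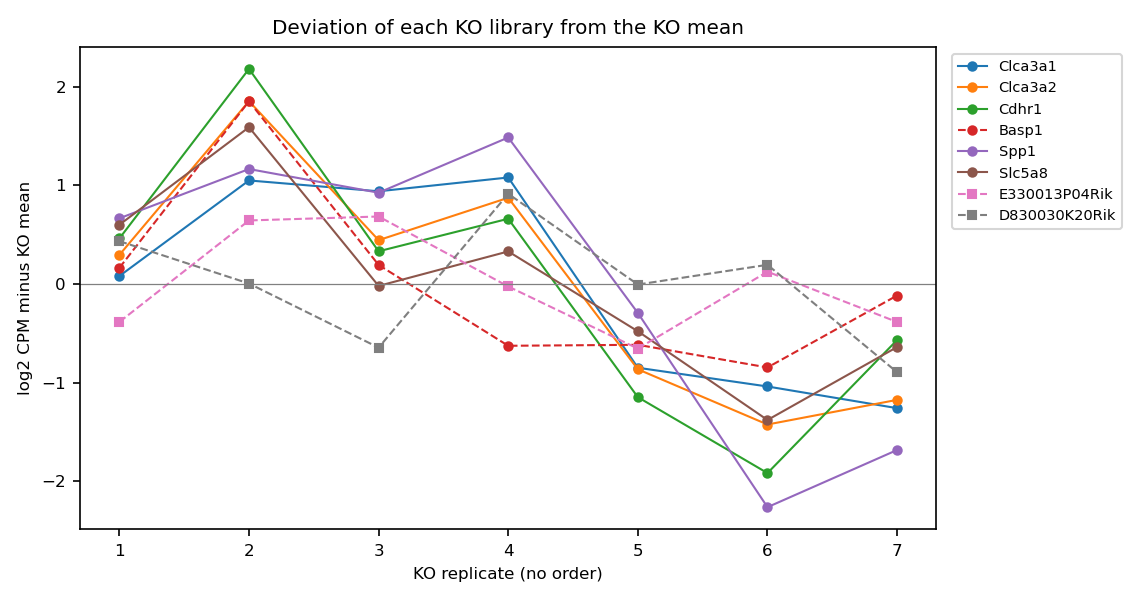
Deviation of each KO library from the KO mean of the gene, in log2 CPM (y axis), for KO replicates 1 to 7 (x axis, no order). Clca3a1, Clca3a2, Cdhr1, Spp1 and Slc5a8 (solid lines) lie above or near 0 in replicates 1 to 4 and below it in replicates 5 to 7, while E330013P04Rik and D830030K20Rik (squares) do not share this course.

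Within the KO genotype, 6 of the 28 pairs of listed genes were correlated across the 7 libraries at an adjusted p under 0.05 by an exact two-sided permutation test of Pearson's r. There were 13 of 28 at an unadjusted p under 0.05, and adjustment was over the 28 pairs. The 6 pairs joined Clca3a1, Clca3a2, Cdhr1, Spp1 and Slc5a8. The closest was Cdhr1 with Slc5a8, at r = 0.97 (exact p = 0.00198, adjusted p = 0.0139) and Spearman's rho = 0.93 (exact p = 0.00675, adjusted p = 0.0378), with r = 0.86 without the 2 libraries farthest from the median. Clca3a2 with Cdhr1 had r = 0.96 (exact p = 0.00179, adjusted p = 0.0139), rho = 0.93 (exact p = 0.00675, adjusted p = 0.0378), and r = 0.91 without the 2 farthest libraries.

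Clca3a2 was also correlated with Slc5a8, at r = 0.94 (exact p = 0.00179, adjusted p = 0.0139), rho = 0.89 (exact p = 0.0123, adjusted p = 0.0492) and r = 0.86 without the 2 farthest libraries. With its neighbour Clca3a1 it had r = 0.93 (exact p = 0.00357, adjusted p = 0.0194), rho = 0.93 (exact p = 0.00675, adjusted p = 0.0378) and r = 0.87 without the 2 farthest libraries beside the shared sequence given above. Spp1 followed Clca3a1 with r = 0.92 (exact p = 0.00139, adjusted p = 0.0139), rho = 0.96 (exact p = 0.00278, adjusted p = 0.0378) and r = 0.96 without the 2 farthest libraries. Spp1 with Clca3a2 gave r = 0.90 (exact p = 0.00417, adjusted p = 0.0194), rho = 0.96 (exact p = 0.00278, adjusted p = 0.0378) and r = 0.96 without the 2 farthest libraries.

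These calls rest on few mice. Called pairs numbered 0 without KO replicate 3 or KO replicate 5, 1 without KO replicate 2, 2 without KO replicate 6, 3 without KO replicate 1, 7 without KO replicate 4 and 6 without KO replicate 7. In those fits r of the 6 pairs still ran from 0.87 to 0.99, each with an unadjusted exact p of at most 0.0278. With the lactation day removed by regression, 11 pairs were called. The largest gap between neighbouring KO values was 0.333 to 0.615 of the range for the 8 genes, and for Clca3a1 and Clca3a2 it set KO replicates 5 to 7 apart from replicates 1 to 4, which leaves too few libraries on each side for a correlation within it.

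**Figure D4:**
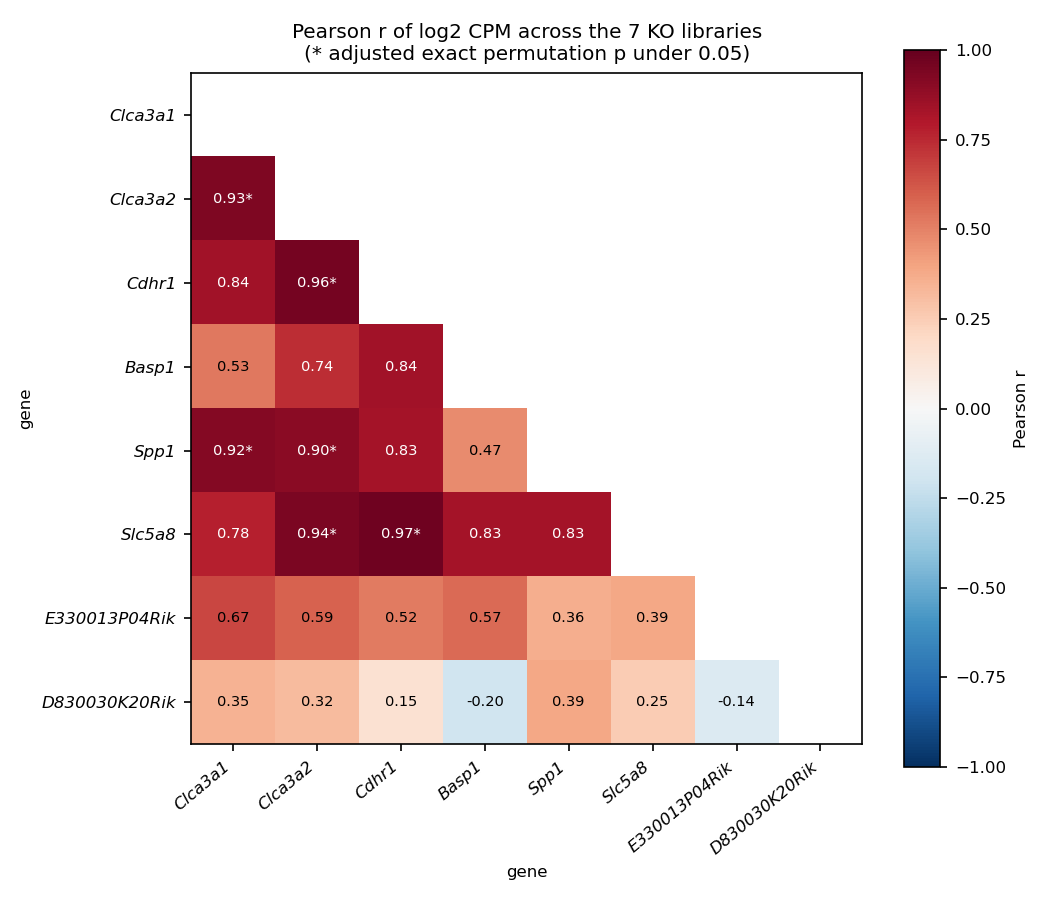
Pearson's r between the log2 CPM of each pair of the 8 genes across the 7 KO libraries, with a colour scale from -1 to 1 and an asterisk where the adjusted exact permutation p is under 0.05. The rows of E330013P04Rik and D830030K20Rik hold no asterisk and have r between -0.20 and 0.67.

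Basp1, E330013P04Rik and D830030K20Rik were in none of the 6 pairs. Basp1 and Cdhr1 had r = 0.84 (exact p = 0.0137, adjusted p = 0.0528) and rho = 0.61 (exact p = 0.167, adjusted p = 0.359), but r = 0.35 without the 2 farthest libraries, so the relation rests on those libraries, of which KO replicate 2 is the highest. E330013P04Rik and D830030K20Rik, with r = -0.14 (exact p = 0.752, adjusted p = 0.757), rho = 0.07 (exact p = 0.906, adjusted p = 0.906) and r = 0.42 without the 2 farthest libraries, were not detectably related.

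Against 8 comparison measures (Saa2, Lcn2, Lif and 5 marker means), 7 of 64 relations were called at an adjusted p of 0.029 by the exact permutation test of r across the 7 KO libraries, adjusted over the 64, and 0 by Spearman's rho. Unadjusted, 13 relations had an exact p under 0.05 by r and 12 by rho. Clca3a1, Clca3a2 and Spp1 followed Saa2, an acute-phase gene, with r of 0.95, 0.94 and 0.96 (exact p = 0.00317, 0.00159 and 0.00238, rho 0.93, 0.93 and 0.89). Clca3a2, Spp1 and Slc5a8 followed Lcn2, an iron-binding acute-phase protein, with r of 0.94, 0.94 and 0.90 (exact p = 0.00278, 0.00298 and 0.00317, rho 0.93, 0.89 and 0.93). Spp1 followed the macrophage marker mean with r = 0.93 (exact p = 0.00317), rho = 0.86 (exact p = 0.0238, adjusted p = 0.139), and r = 0.63 without the 2 farthest libraries, so this relation rests on those libraries. The other 6 relations had r from 0.87 to 0.97, each without the 2 libraries farthest from the median of its own listed gene. The count was 4 without KO replicate 1, 2 without KO replicate 7 and 0 without any other KO library. With 1 library left out, r of the 7 relations still ran from 0.86 to 0.98, each with an unadjusted exact p of at most 0.025. Of 19 acute-phase and Stat3 genes, a list made with earlier results of these data known, 12 were higher in KO and 0 lower (median 2.13). No relation of Cdhr1, Basp1, E330013P04Rik or D830030K20Rik was called. Cdhr1 had r = 0.84 with Saa2 (exact p = 0.0131, adjusted p = 0.0838) and 0.87 with Lcn2 (exact p = 0.00972, adjusted p = 0.0734), with rho = 0.89 for each. Basp1 had r = 0.89 with Lif (exact p = 0.0222, adjusted p = 0.119). With Saa2 and Lcn2, r was 0.52 and 0.55 for Basp1, 0.45 and 0.38 for E330013P04Rik, and 0.52 and 0.55 for D830030K20Rik.

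Saa2 had 9.21, 10.86, 8.66, 10.75, 5.48, 3.15 and 2.14 log2 CPM in KO replicates 1 to 7, against -1.48, -0.11, 0.45, -0.50 and -2.34 in WT replicates 1 to 5. Like the 5 correlated genes, it was higher in KO replicates 1 to 4 than in KO replicates 5 to 7.

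The genes most like each listed gene were sought, above a mean level of 1 log2 CPM, by r across the 7 KO libraries, as a description. For Clca3a2 they were Btg1, a brake on cell proliferation, Lsr, a lipoprotein receptor of tricellular junctions, and Stom, a membrane scaffold protein (r of 1.0, 0.98 and 0.98 after rounding). For Cdhr1 they were Cd9, a tetraspanin (r = 0.99), Slc5a8 and Ctnnb1, the cadherin-binding catenin (r = 0.97 each). Ctnnb1 averaged 6.90 ± 0.12 log2 CPM in KO and 6.90 ± 0.09 in WT (SD, n = 7 and 5). For Slc5a8 they were Tgfbr3, Cd9 and Zdhhc18, and for Spp1 they were Cxx1b, Rps6ka3 and AI506816 (r from 0.97 to 0.98).

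Cldn4, a tight junction claudin, Trp53inp2 and Lpgat1 were most like Basp1 (r from 0.98 to 0.99), and in all 3, as in Basp1, KO replicate 2 was the highest KO library. Smad5, Sox4 and Pdzd2 were most like Clca3a1 (r from 0.97 to 0.98), Sltm, Stk35 and Taf15 most like E330013P04Rik (r from 0.96 to 0.97), and Dcp2 and Vcam1 were among those most like D830030K20Rik (r of 0.98 and 0.96). The 3 highest of a whole table are high by choice. Between 0.135% of genes for E330013P04Rik and 0.761% for Cdhr1 had r of at least 0.9, and between 0.177% and 0.921% had r of -0.9 or lower.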

How the data were processed

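Libraries of polyA RNA were prepared with the Illumina TruSeq mRNA kit, per the labels' protocols. Upstream tools, per the submitters' processing notes, were limma 3.34.5, RSEM 1.3.0, STAR 2.5.2b, Trimmomatic 0.33 and bcl2fastq 2.17, and the notes name mm10 and hg19 without their roles. Strand setting, filters and annotation are not stated. The authors deposited log2 CPM from voom, quantile-normalized: 67.1% of ranks differed by less than 0.01 log2 over the libraries, and libraries summed to 988803 to 988808 CPM. A shift of most genes together would not be seen on this scale. The deposited table also has the authors' p-value and adjusted p-value, and as scores the t statistic, signed fold and SDs, per the file headers.

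All 8 genes were in the table. Members and gene lists were chosen with earlier results of these data known. KO was set against WT by limma 3.58.1 (R 4.3.3, trend and robust options) with Benjamini-Hochberg adjustment over all genes, called at 0.05, after a test on simulated data. Correlations used exact permutation over all pairings of the 7 KO libraries (smallest possible p 0.000198). P-values judge differences and correlations against the spread between these mice. They cannot separate genotype from breeding or diet. Depth is an estimate, so no counting intervals are given. Figures were drawn in Python 3.11.15.

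Named were the 8 genes, Btn1a1, the called genes of each list (up to 4 of smallest adjusted p, or the 1 of smallest), the nearest measured neighbours and the 3 genes of highest r. Saa2, the called markers and the genes between the 8 in rank were named after their values were seen. Positions are from GENCODE M21 (mm10) and promoter windows from RefSeq (GRCm38.p6), which matched all 8 genes with 10 windows. Some items that these rules would name are not reported here. Alternatives were a replicate block, lactation day, day 10 libraries alone, scalings, a filter on low values, library weights, variance options and each library left out.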

Additional observations from a re-analysis of the deposited data

Results flagged for a closer look

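A search of 144 groups of values (each named gene or marker mean in KO or in WT) for 1 library standing apart from the rest found 10, by the gap to the nearest library as a share of the group's range. The limit is Dixon's 95% critical value for the number of libraries, which by its definition about 1 in 20 groups would pass by chance if values were normally spread. Of the 8 listed genes 1 was found, Basp1, with KO replicate 2 highest at 5.86 log2 CPM (0.615). The same library stood apart as the highest for 3 genes picked for following Basp1 across KO libraries: Cldn4 at 5.48 (0.634), Lpgat1 at 7.72 (0.618) and Trp53inp2 at 6.57 (0.58). These were chosen by that likeness, so they are not separate evidence.

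WT replicate 3, the only WT library of day 11, was the highest for Lcn2 at 8.01 log2 CPM (0.838), for Btn1a1 at 11.23 (1.0, as the other 4 libraries nearly coincide) and for Sltm at 4.20 (0.815), and the lowest for Timp1 at 3.22 (0.744). WT replicate 2 was the highest for Pdzd2 at 3.37 (0.768) and for the adipocyte marker mean at 5.72 (0.795). Whether lactation day has a part in the WT replicate 3 values was not tested, since no other WT library is of that day.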

How the results depend on the processing

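The differences of the 8 listed genes were recomputed under 168 alternatives in all, and each moved by less than 1 within-group SD, with none of the other sign. The count of genes called between KO and WT was 1108. It was 268 in the libraries of day 10 alone, 249 at an adjusted p under 0.01, and 559 to 1327 with 1 library left out (724 without KO replicate 1, and 559, 644, 725 and 696 without WT replicates 1, 2, 3 and 5). It stayed within 1.5 times of 1108 under the other settings, such as 1141 by the authors' deposited adjusted p. Pairs of listed genes called across KO libraries numbered 6, 11 with lactation day removed by regression, and 0 to 7 with 1 library left out. Relations with comparison measures numbered 7, 0 by Spearman's rho, and 0 to 4 with 1 library left out.

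Replicate numbers are shared by KO and WT without a stated pairing. The deviations of same-numbered libraries had correlations of -0.162, 0.00218, -0.17, 0.213 and 0.0791, and not every library was most like its own number, so the numbers were not read as pairs. With the replicate block 1083 genes were called. The cause of the changed counts was not tested, beyond the smaller number of libraries in the settings that leave some out. Depth limits the WT values of Clca3a1, Cdhr1, E330013P04Rik and 2610528A11Rik, which stand for low read counts, at 2.02 CPM or less. The same limit holds for Basp1 and Slc5a8 in WT libraries other than WT replicate 3, at 0.564 to 1.27 and 0.771 to 2.24 CPM.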
